A study of Homo sapiens with 5 samples.

Results

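The genes described here are long intergenic noncoding RNA genes of the human leukaemia cell line REH that carry a LINC symbol followed by a number. They were chosen by their level: of 2209 such genes among the 65217 human gene identifiers measured, the 160 with at least 400 estimated counts summed over 5 libraries were kept, and all 160 could be tested. REH is an established precursor B cell acute lymphoblastic leukaemia line with the ETV6-RUNX1 (TEL-AML1) fusion of a 12;21 translocation. The cells had been transplanted into NSG mice aged 6 to 10 weeks (NOD.Cg-PrkdcscidIl2rgtm1Wjl/SzJ, a strain without T, B or natural killer cells of its own), and the labels name no further treatment or genetic change of the cells or the mice. The comparison is between 3 libraries of cells retrieved from the brain (its leptomeninges, the inner membranes around it) and 2 libraries of cells retrieved from the spleen. Each library pools RNA from 5 mice, and the replicate number marks 1 of 3 occasions; a spleen library of the third occasion failed quality control, per the labels. P-values therefore measure the spread between pools, not between animals, and all results rest on a single cell line.

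A long intergenic noncoding RNA is a transcript made and usually spliced like a messenger RNA, from its own locus between protein-coding genes, with no established protein product. A few act on neighbouring genes or bind proteins, and many are restricted to certain cell types; for most numbered LINC genes no function is established. The libraries were made from polyadenylated RNA, so noncoding RNAs without a poly(A) tail are not measured well.

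Library totals in the gene table ran from 38387991 to 48764202 estimated counts. Markers of B cell precursors were present at both sites: 11 of 12 marker genes had a CPM (count per 1000000 counts) of at least 1 in every library, and VPREB1 was listed at 0. Of 16 markers of other human cells, 13 were under 1 CPM in every library, with the T cell gene CD3D and the neuronal gene SNAP25 at 0, and the list summed to between 31.2 and 33.8 CPM in brain against 15.0 to 15.1 CPM in spleen, mainly through MBP and PECAM1, which were above 1 CPM in every library. Mouse transcripts took 5.70%, 2.58% and 2.64% of all estimated counts in brain replicates 1 to 3, and 6.33% and 8.87% in spleen replicates 1 and 2. The difference of -3.96 percentage points had an exact two-sided permutation p of 0.2, where the smallest p that 3 against 2 libraries can give is 0.1. Of the calls below, 4 were kept when the mouse share entered the fit as a covariate, as given with them. The mouse share was lower in every brain library than in either spleen library, so it goes partly with the site. A call lost in that fit therefore cannot be assigned to the mouse share or to the site.

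Several of the genes that differed most clearly between the sites are shown first by their promoters, because these are the loci on which the results turn. The sequences are RefSeq's for GRCh38.p14, from 250 bases before to 50 bases after the RefSeq start, 5′ to 3′ on the gene's strand. Capitals mark the letters GCGTG or, where the match is on the other strand, CACGC; this is a form of the core bound by hypoxia-inducible factors. The windows are chr4:152100503-152100802 (plus strand) for LINC02273, chr18:55920150-55920449 (minus) for LINC01416, chr14:90454980-90455279 (plus) for LINC00642, chr11:78429787-78430086 (minus) for LINC02728 and chr7:155381826-155382125 (plus) for LINC03010.
LINC02273: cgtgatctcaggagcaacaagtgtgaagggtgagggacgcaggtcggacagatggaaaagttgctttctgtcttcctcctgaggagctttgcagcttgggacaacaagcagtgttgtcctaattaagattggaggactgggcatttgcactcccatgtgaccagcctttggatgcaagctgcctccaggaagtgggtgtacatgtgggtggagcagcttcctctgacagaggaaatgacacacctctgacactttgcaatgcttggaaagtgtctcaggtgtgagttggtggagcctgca
LINC01416: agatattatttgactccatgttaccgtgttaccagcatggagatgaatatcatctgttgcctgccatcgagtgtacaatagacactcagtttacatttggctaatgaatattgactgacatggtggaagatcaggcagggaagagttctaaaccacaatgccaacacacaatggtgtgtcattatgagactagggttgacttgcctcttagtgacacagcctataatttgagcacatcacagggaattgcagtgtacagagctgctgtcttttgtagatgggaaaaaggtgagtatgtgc
LINC00642: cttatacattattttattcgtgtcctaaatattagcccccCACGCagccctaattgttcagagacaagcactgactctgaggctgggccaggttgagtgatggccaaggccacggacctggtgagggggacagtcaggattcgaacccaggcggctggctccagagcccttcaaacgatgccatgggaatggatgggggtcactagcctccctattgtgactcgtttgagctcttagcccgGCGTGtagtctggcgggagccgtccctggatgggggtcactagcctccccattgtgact
LINC02728: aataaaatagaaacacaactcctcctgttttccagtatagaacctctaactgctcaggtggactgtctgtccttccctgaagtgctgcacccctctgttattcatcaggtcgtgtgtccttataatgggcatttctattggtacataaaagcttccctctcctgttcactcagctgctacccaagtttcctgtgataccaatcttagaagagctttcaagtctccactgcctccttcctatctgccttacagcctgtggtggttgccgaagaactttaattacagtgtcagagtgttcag
LINC03010: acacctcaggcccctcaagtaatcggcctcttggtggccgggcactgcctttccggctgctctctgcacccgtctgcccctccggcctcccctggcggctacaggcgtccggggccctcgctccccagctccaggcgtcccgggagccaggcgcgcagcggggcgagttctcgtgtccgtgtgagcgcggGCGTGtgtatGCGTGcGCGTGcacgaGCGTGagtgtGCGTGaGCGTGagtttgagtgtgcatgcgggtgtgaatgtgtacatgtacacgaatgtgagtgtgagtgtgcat

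In the windows printed, the start fits the transcript that held most of the gene's estimated counts. The leading transcript began at the RefSeq start itself for LINC01416, LINC02728 and LINC03010, and 65 and 41 bases from it for LINC02273 and LINC00642. Among called genes not printed, this distance ran from 0 bases for LINC01221 to 162649 for LINC01138, and was 9054 for LINC00689. LINC03010 held 6 GCGTG matches, all on its own strand and within 60 bases before the start, in a window of 66% G and C. LINC00642 held 2 matches, at 210 and 9 bases before the start, and the other promoters printed held none. The LINC01416 and LINC02728 windows each held TGTGGT, the core bound by RUNX factors, 1 time. Motifs were searched on both strands. The RefSeq table had an entry for 105 of the 160 genes and for 15 of the 19 past the test's threshold; LINC01922, LINC00958, LINC02413 and LINC02405 had none. The 105 promoters had a median of 52% G and C, against 58.7% for all 35116 promoters of this length. GCGTG was present in 27.6% of the 105 promoters and in 36.5% of all 35116. For ACGTG, the other hypoxia core, the shares were 22.9% and 21.4%. TGTGGT was present in 17.1% and 13.1%, the E-box CACGTG, which contains ACGTG, in 8.57% and 7.26%, and TCACNCCAC, a sterol response element, in 0.952% and 1.13%. A match describes letters in the window and is no evidence of binding.

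Among the 160 LINC genes, 16 were higher and 3 lower in brain than in spleen at an adjusted p under 0.05 (quasi-likelihood F test of edgeR, adjusted by Benjamini-Hochberg over all 20419 genes tested). That is 10% and 1.88% of the LINC genes. Of all genes tested, 6.01% were higher and 3.5% lower; of all genes with at least 400 counts, 7.42% and 5.05%; and of other long noncoding RNA genes with at least 400 counts, 6.6% and 1.73%. The remaining 141 LINC genes did not pass the threshold. The 16 were led by LINC02273, LINC01416, LINC00642 and LINC02728, and the 3 lower genes were LINC00689, LINC01221 and LINC02405. Since the count minimum was applied to the sum over both sites, a gene could pass through its level at the higher site. With every library at the lower site's mean, 18 of the 160 would have been under 400 counts. Of these 18, 16 had the higher mean in brain. Of the 16 genes called higher, 6 are among the 18 (LINC00642, LINC00930, LINC01134, LINC01416, LINC02413 and LINC02728). A minimum of 400 counts at the lower site's mean was chosen after seeing the data and applied to every gene. With it, 10 of 142 LINC genes were higher and 3 lower (7.04% and 2.11%). The shares were 6.78% and 5.08% for all genes and 6.04% and 1.87% for other long noncoding RNA genes. The higher share was thus near that of all genes, and the lower share was near that of other long noncoding RNA genes. The counts above are therefore a description of the genes chosen.

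**Figure D1:**
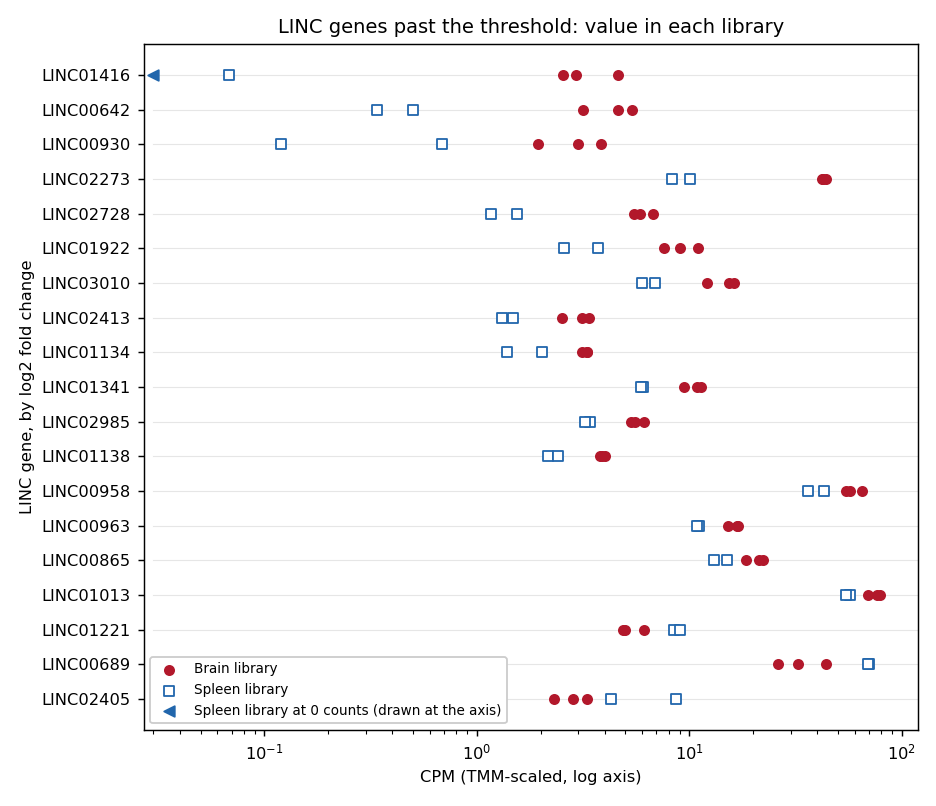
CPM (scaled by TMM, log axis) of the 19 LINC genes past the threshold in each brain library (filled circles) and spleen library (open squares), ordered by log2 fold change. The sites do not overlap for any of them; LINC01416 had 0 counts in spleen replicate 2, drawn at the axis.

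LINC02273 had the smallest p. It lies on chromosome 4 at 152090459-152110157 (GRCh38, plus strand), between GATB and FBXW7, and has been reported in breast cancer cells as a partner of the RNA-binding protein hnRNPL. Its level was 42.2, 42.6 and 44.1 CPM in brain replicates 1 to 3 and 8.34 and 10.1 CPM in spleen replicates 1 and 2. The brain libraries lay close together, far above both spleen libraries. The means were 43.0 ± 1.02 CPM (SD, n = 3) and 9.23 ± 1.26 CPM (SD, n = 2), so the log2 fold change was 2.22 ± 0.12 (SE; adjusted p = 6.1e-05 in edgeR). The same isoform, of 3 exons, held 83.6% to 85.2% of its estimated counts in brain and 84.9% and 81.3% in spleen.

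LINC01416 was nearly absent from the spleen libraries. The gene spans 55881688-55998219 on the minus strand of chromosome 18, between TCF4 and TXNL1. It had 99, 145 and 209 estimated counts in brain replicates 1 to 3, and 3 and 0 in the spleen replicates, or 2.54, 2.93 and 4.64 CPM against 0.068 and 0 CPM. Every brain library held many more counts than the spleen libraries together. With 453 counts against 3, the ratio after scaling by library size was 107, with a 95% counting interval of 36.3 to 519 that covers counting error only. The fitted log2 fold change was 6.60 (edgeR adjusted p = 0.000793). Its SE of 0.65 was derived from the F statistic and is no reliable width with so few spleen counts. The fitted change moved with those counts: it was 10.28 with spleen replicate 1 left out and 5.57 with replicate 2 left out.

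LINC00642 and LINC02728 were also several times higher in brain. LINC00642, on chromosome 14 at 90453571-90490763 (plus strand), had 3.18, 5.40 and 4.62 CPM in brain against 0.501 and 0.337 CPM in spleen. Brain replicate 1 was the lowest of the brain libraries and still above both spleen libraries; the log2 fold change was 3.39 (SE 0.34, edgeR adjusted p = 0.000793). LINC02728, on chromosome 11 at 78423982-78429836 (minus strand) between GAB2 and NARS2, had 6.74, 5.52 and 5.89 CPM in brain against 1.55 and 1.17 CPM in spleen. The libraries of each site again lay close together, and the log2 fold change was 2.15 (SE 0.22, edgeR adjusted p = 0.000992). In LINC00642 the leading isoform held 83.6%, 75.9% and 83.1% of the gene's counts in brain and 59.7% and 70.6% in spleen, where the gene had only 22 and 17 counts in all. LINC02728 was estimated from a single transcript.

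These 4 genes (LINC02273, LINC01416, LINC00642 and LINC02728) kept their call in all 15 alternative analyses, including the fit with the mouse share, where their edgeR adjusted p ran up to 0.0472.

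LINC03010 and LINC01922 followed. LINC03010, on chromosome 7 at 155382076-155396356 (plus strand), had 12.1, 16.2 and 15.3 CPM in brain against 6.02 and 6.86 CPM in spleen. The log2 change was 1.18 (SE 0.17, edgeR adjusted p = 0.00438). LINC01922, on chromosome 18 at 74409415-74413209 (plus strand), had 9.04, 11.0 and 7.64 CPM in brain and 3.74 and 2.56 CPM in spleen. Its brain libraries were more spread out than those of LINC02273, and the sites did not overlap; the log2 fold change was 1.55 (SE 0.23, edgeR adjusted p = 0.00565). Both genes stayed past the threshold when any single library was left out, and neither did with the mouse share as a covariate (edgeR adjusted p = 0.223 for LINC03010 and 0.188 for LINC01922). With limma on log2 TPM, LINC01922 just passed (adjusted p = 0.0499) and LINC03010 did not (0.0752).

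LINC00930, on chromosome 15 at 92567817-92574529 (minus strand), had few counts: 76, 148 and 173 in brain and 30 and 6 in spleen. The spleen libraries differed by a larger factor than the brain libraries, at 0.684 and 0.119 CPM against 1.95, 2.99 and 3.84 CPM. The log2 fold change was 2.90 (SE 0.58, edgeR adjusted p = 0.0186). Leaving out spleen replicate 2 gave 2.09 and leaving out spleen replicate 1 gave 4.58, and with brain replicate 2 left out the edgeR adjusted p was 0.0564.

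LINC01013 and LINC00958, measured with over 1000 counts in every library, were moderately higher in brain. LINC01013 spans 131901848-132169992 on chromosome 6 (plus strand) and overlaps CCN2. It had the highest level per transcript length of the 152 LINC genes with a usable TPM (transcripts per 1000000, which corrects for length), at 151.1, 141.9 and 151.0 TPM in brain and 106.5 and 120.9 TPM in spleen; the median gene had a mean of 5.14 TPM. Its 79.4, 69.4 and 76.4 CPM in brain exceeded 57.1 and 54.8 CPM in spleen, by 0.42 ± 0.10 (SE) on the log2 scale (edgeR, adjusted p = 0.0330). LINC00958, reported in several carcinomas to promote lipid synthesis, lies on chromosome 11 at 12961541-12989597 (minus strand). It had 88.9, 90.2 and 93.8 TPM in brain and 52.2 and 77.4 TPM in spleen. Brain was above spleen in every library, with spleen replicate 2 the nearer one, and the log2 fold change of its counts was 0.57 (SE 0.12, edgeR adjusted p = 0.0214). LINC00958 lost its call without brain replicate 1, brain replicate 3 or spleen replicate 1, and LINC01013 without any library other than brain replicate 2. The leading isoforms took similar shares at the sites: the leading LINC01013 isoform held a mean of 60.8% of its counts in brain and 60.9% in spleen, and the leading LINC00958 isoform 67.7% and 69.9%.

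The other 7 genes higher in brain changed by log2 0.56 to 1.10. LINC02413 on chromosome 12 had 131, 125 and 140 counts in brain and 65 and 66 in spleen (log2 fold change 1.10). LINC01134 on chromosome 1, whose start lies 54 bases from that of C1orf174 on the opposite strand, had 122, 164 and 149 counts against 89 and 70 (log2 fold change 0.93). LINC01341 on chromosome 1 had 368, 565 and 492 counts against 267 and 300 (log2 fold change 0.82). All brain libraries were above all spleen libraries in CPM for each of them. LINC02985 on chromosome 12 changed by 0.77 and LINC01138 on chromosome 1, reported to bind the methyltransferase PRMT5, by 0.76. LINC00963 on chromosome 9, first described in prostate cancer cells, changed by 0.57, and LINC00865 on chromosome 10 by 0.56. The edgeR adjusted p of these 7 genes lay between 0.0141 and 0.0432, and each lost its call without at least 2 of the 5 libraries: LINC01341 without 2, LINC02413, LINC01134 and LINC00865 without 4, and LINC00963, LINC02985 and LINC01138 without any 1 of the 5. With the replicate number as a block, a pairing of occasions that rests on the labels alone, LINC02985 (edgeR adjusted p = 0.0555), LINC01134 (0.0611) and LINC01138 (0.0693) no longer passed.

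LINC00689 had the smallest p of the 3 lower genes. It lies at 159006522-159030195 on chromosome 7 (plus strand) and overlaps VIPR2, a receptor for vasoactive intestinal peptide. It had 44.1, 32.4 and 26.2 CPM in brain replicates 1 to 3 and 70.1 and 69.8 CPM in the spleen replicates. The spleen libraries were nearly equal and the brain libraries spread, with brain replicate 1 the nearest to spleen; the log2 fold change was -1.03 (SE 0.18, edgeR adjusted p = 0.0116). It kept its call without each of the 5 libraries, but not with the mouse share in the fit (log2 fold change -0.57, edgeR adjusted p = 0.376). The transcript that overlaps VIPR2 held 42.5% to 48.5% of its counts in every library.

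LINC01221 on chromosome 1, between PTPRC and NR5A2, had 240, 242 and 225 counts in brain and 374 and 458 in spleen. Its log2 fold change was -0.72 (SE 0.17, edgeR adjusted p = 0.0320), and leaving out any of the 5 libraries cost the gene its call, as did the replicate block (edgeR adjusted p = 0.0562). LINC02405 on chromosome 12 had 3.31, 2.83 and 2.31 CPM in brain and 8.70 and 4.27 CPM in spleen. Its difference rested largely on spleen replicate 1: the log2 fold change was -1.20 (SE 0.30, edgeR adjusted p = 0.0397) with all libraries, and -0.61 (adjusted p = 0.25) without it. The call was also lost without each of the 3 brain libraries.

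Annotation limits some of these values. The kit was stranded per the labels, but the strand setting of the counting is not given in the sources used here. Whether reads of a gene and of a partner on the opposite strand were kept apart is therefore not known. Of the 160 genes, 73 share exonic bases with another gene, 62 on the opposite and 27 on the same strand, and 9 of the 19 called genes are among the 73. All counts of LINC01341, LINC02413, LINC01221, LINC00865 and LINC01138, and at least 96.8% of those of LINC00963 in every library, came from transcripts that overlap another gene. LINC00642 and LINC01013 are less affected, with 0% and at most 3.92% of counts in such transcripts. For LINC01138 the transcripts of the GENCODE 44 model held 3.11 times the counts in the gene table, so its TPM is not given here. The limma fit on log2 TPM still included it. By annotation 154 of the genes are long noncoding RNA genes and 6 are transcribed pseudogenes, none of which was called; 20 overlap the body of a protein-coding gene, so that not every LINC gene is intergenic.

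The calls rest on few libraries. Leaving out any 1 library lowered the number of higher genes from 16. With brain replicate 1 left out, 8 LINC genes were higher and 1 lower (5% and 0.625%, against 2.57% and 0.728% of all genes then tested). With brain replicate 2 left out the numbers were 9 and 1 (5.62% and 0.625%, against 2.97% and 1.25%), and with brain replicate 3 left out again 9 and 1 (against 4.19% and 2.27%). Dropping spleen replicate 1 gave 8 and 3 (5% and 1.88%, against 3.46% and 1.36%), and dropping spleen replicate 2 gave 11 and 4 (6.88% and 2.5%, against 4.07% and 3.87%). In each of these fits a larger share of LINC genes than of all genes was higher. These fits reuse the LINC genes chosen by their counts summed over the same libraries, and set them against genes at any count. The repeated excess is therefore no independent evidence of a higher share. With all libraries and the minimum of 400 counts held at the lower site's mean, the shares were 7.04% and 6.78%. The fits without 1 library were not repeated with that minimum. Of the 19 genes, 7 kept their call without each of the 5 libraries (LINC02273, LINC01416, LINC00642, LINC02728, LINC03010, LINC01922 and LINC00689), and none changed direction in any alternative. With the mouse share as a covariate 4 were higher and 0 lower (2.5% and 0%), against 0.558% and 0.0539% of all genes tested. Of these 4, LINC01416, LINC00642 and LINC02728 would have been under 400 counts at the lower site's mean. The comparison is again with genes at any count, so this excess is no independent evidence of a higher share either.

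**Figure D2:**
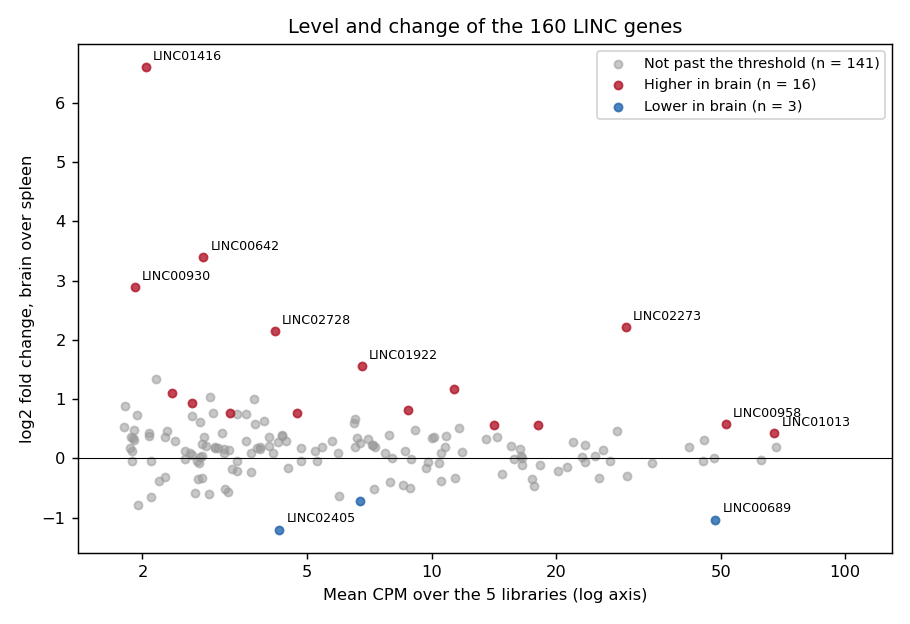
Log2 fold change (brain over spleen) against the mean CPM over the 5 libraries (log axis) for each of the 160 LINC genes, coloured by call: 16 higher, 3 lower and 141 not past the threshold. LINC01416 stands at 6.60, and the called genes with the highest CPM, LINC01013 and LINC00958, changed by 0.42 and 0.57.

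The 160 genes include the 18 that would have been under 400 counts at the lower site's mean, 16 of them with the higher mean in brain. The direction of the 160 as a group is therefore partly set by the choice. Their median log2 fold change was 0.18, with quartiles of -0.05 and 0.38, and 109 were above and 51 below 0. The median was 0.04 for other long noncoding RNA genes and -0.0019 for all genes with at least 400 counts. In 67 LINC genes every brain library was above every spleen library and in 18 every one was below (41.9% and 11.2%), while the ranges of 75 overlapped. The same held for 25.7% and 23.5% of all genes with at least 400 counts, for 23.3% and 19.5% of all genes tested, and for 24.4% and 15% of the other long noncoding RNA genes with at least 400 counts. At an unadjusted p under 0.05, 39 LINC genes were on the brain side and 13 on the spleen side (24.4% and 8.12%), against 16.7% and 15.4% of all genes and 13.3% and 7.01% of other long noncoding RNA genes with at least 400 counts. For the 142 LINC genes that held the minimum at the lower site, the median was 0.14, with 93 above and 49 below 0 and 38% and 11.3% whose sites did not overlap, beside a median of -0.0066 and 24.8% and 23.7% for all genes chosen in that way. The sum over the 160 genes was 1757, 1713 and 1640 CPM in brain and 1491 and 1636 CPM in spleen. Brain replicate 3 and spleen replicate 2 were thus almost equal in total, at 1640 and 1636 CPM. The members together took between 0.142% and 0.179% of a library's counts. In such bulk libraries, a change in the share of cells that make an RNA and a change in the RNA per cell cannot be told apart.

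**Figure D3:**
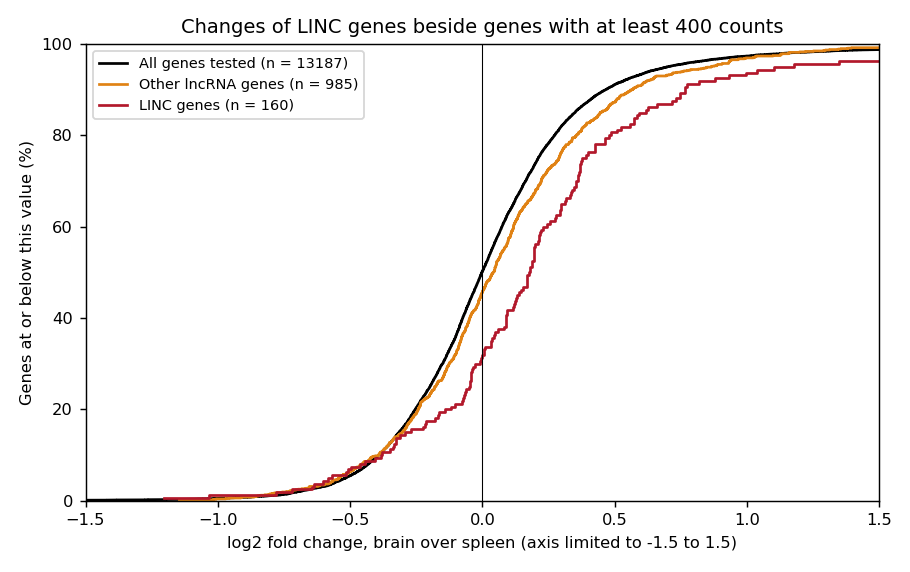
Cumulative share of genes (%) by log2 fold change, brain over spleen, for the 160 LINC genes, 985 other long noncoding RNA genes and 13187 genes in all, each with at least 400 counts. The LINC curve lies to the right, with a median of 0.18 against 0.04 and -0.0019.

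The genes that did not pass the threshold spanned log2 fold changes of -0.78 to 1.35, and 72 of the 141 were within 0.25 of 0. Only LINC00923 and LINC01145, named after their values were seen, were 1 or more from 0. LINC00923 had 2.28, 3.03 and 3.24 CPM in brain and 0.661 and 1.57 CPM in spleen (log2 fold change 1.35, edgeR adjusted p = 0.0501), and passed in 6 of 15 alternatives, the replicate block, DESeq2 and the fit without spleen replicate 2 among them. LINC01145, a transcribed pseudogene, had 2.56, 3.88 and 4.53 CPM against 1.46 and 2.10 CPM (log2 fold change 1.04, adjusted p = 0.0615), and passed with DESeq2 and with no filter on low counts. In both, all brain libraries were above all spleen libraries, and the nearest libraries were less than 1 CPM apart. A further 11 had an adjusted p between the threshold and 0.10, which makes 13 in all. The median standard error of the LINC genes was 0.21 on the log2 scale, against 0.18 over all genes tested.

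Several of the most abundant LINC genes did not pass. LINC00426, on chromosome 13, was second to LINC01013 by mean TPM and had 141.3, 128.4 and 113.7 TPM in brain and 104.3 and 122.5 TPM in spleen. Its brain and spleen ranges overlapped in TPM, and the log2 fold change of its counts was 0.20 (edgeR adjusted p = 0.254). LINC01238, on chromosome 2, had 69.8, 84.0 and 59.0 TPM in brain and 48.8 and 97.4 TPM in spleen, so that the spleen libraries were the lowest and the highest of the 5; its log2 fold change was 0.0048 (adjusted p = 0.992). LINC02802, on chromosome 1, had 50.04, 50.26 and 54.08 TPM in brain and 62.4 and 50.8 TPM in spleen, with a log2 fold change of its counts of 0.23 (adjusted p = 0.613). Its TPM was higher in spleen and its counts in brain, and neither difference passed a test. By mean TPM the order was LINC01013 (134), LINC00426 (122), LINC00958 (80.5), LINC01238 (71.8) and LINC02802 (53.5). The first 2 overlapped in their library values, and so did LINC00958 and LINC01238, and LINC01238 and LINC02802.

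Levels in general were low. Totals over the 5 libraries ran from 409 to 15424 counts with a median of 1086; 77 genes were under 1000 counts and 8 had at least 10000, and the 10 most counted held 31.13% of all LINC counts. Just inside the minimum of 400 were LINC01719 with 409 counts, LINC00115 with 416 and LINC01004 with 423. Just outside it were LINC00921 with 394, LINC02610 with 392 and LINC00487 with 390. LINC00487 had 90, 161 and 116 counts in brain and 12 and 11 in spleen, so a gene with well separated sites lies just outside the selection. With a minimum of 200 counts, 22 of 239 LINC genes were higher and 3 lower (9.21% and 1.26%, against 7.23% and 4.62% of all genes). With 1000 counts 9 of 83 were higher and 2 lower (10.8% and 2.41%, against 7.48% and 5.56%). For other long noncoding RNA genes the shares were 4.88% and 1.35% at 200 counts. At 1000 counts they were 9.8% and 2.94%, near those of the LINC genes. Both minimums apply to the sum over both sites.

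The libraries of a site differed from each other as follows. Spleen replicate 2 was at least 1.5 times spleen replicate 1 in 22 of the 160 (13.8%), against 3.91% of all genes and 9.14% of other long noncoding RNA genes with at least 400 counts. The opposite was seen in 14 (8.75%), against 2.93% and 6.4%. In 33 (20.6%) the highest brain library was at least 1.5 times the lowest, against 8.46% and 23.8%, and 28.1% of all genes tested at any count. These shares are descriptions and were not tested. The genes named next were chosen after their values were seen. LINC02334, on chromosome 13 beside the channel gene TRPC4, had 2328, 2430 and 1786 counts in brain but 538 and 3389 in spleen, or 59.7, 49.1 and 39.7 CPM against 12.3 and 67.2 CPM. Its spleen libraries differed 5.48 times and lay on either side of all brain libraries, and the log2 fold change was 0.31 (SE 0.53, edgeR adjusted p = 0.774); the change was -0.45 with spleen replicate 1 left out and 2.01 with spleen replicate 2 left out, the only alternative in which the gene passed. LINC01873, LINC00923 and LINC01237 had spleen ratios of 2.56, 2.37 and 2.01. Of the 22 genes, 17 had a brain mean between the spleen libraries and 0 were called. In 15 of the 22, brain replicate 3 was the lowest brain library, as it was in 75 of all 160. Spleen replicate 1 was the lowest of the 5 libraries for 49 LINC genes and spleen replicate 2 for 56, while the highest was brain replicate 1 for 44, brain replicate 2 for 38, brain replicate 3 for 32, spleen replicate 1 for 17 and spleen replicate 2 for 29.

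**Figure D4:**
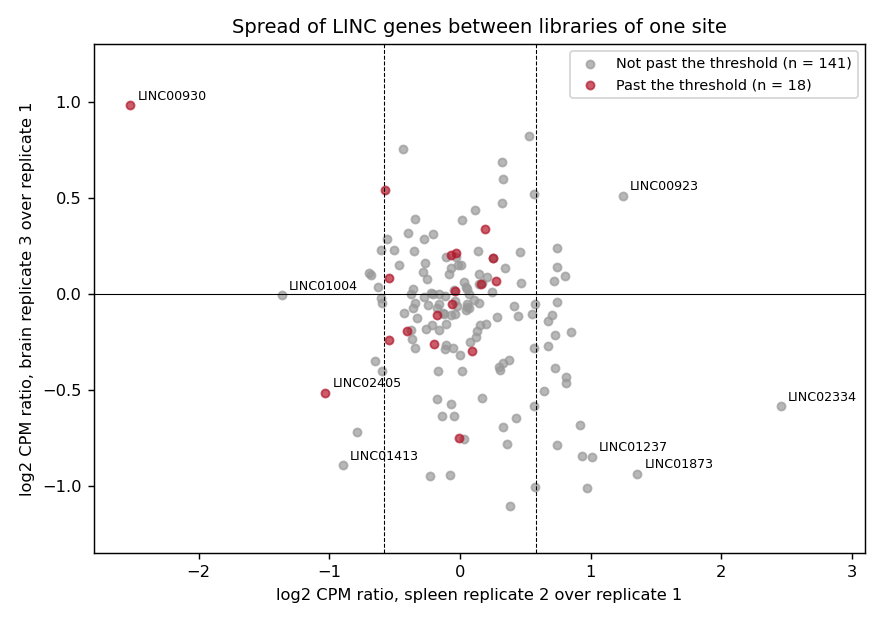
Log2 ratio of CPM in spleen replicate 2 over replicate 1 (x axis) against brain replicate 3 over replicate 1 (y axis) for 159 LINC genes; LINC01416 is not drawn because spleen replicate 2 had 0 counts. Dashed lines mark a ratio of 1.5 between the spleen libraries, and LINC02334 lies farthest right with a ratio of 5.48.

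Protein-coding neighbours of the LINC genes were read from the same fit, as the nearest gene on each side and any gene that overlaps or starts within 5000 bases. Of 29 tested neighbours of the LINC genes higher in brain, 7 were higher (24.1%) and 1 was lower (3.45%). Of 196 neighbours of LINC genes that did not pass, 21 were higher (10.7%) and 7 lower (3.57%), and of all protein-coding genes tested 7.17% and 4.68%. None of 4 tested neighbours of the lower LINC genes passed. These shares are descriptions, with no test of the difference between them.

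The 7 neighbours lie at 6 LINC genes. FBXW7, which selects substrates such as MYC and NOTCH for ubiquitination, is 210387 bases from LINC02273 and had 108.6, 101.3 and 109.6 CPM in brain and 38.7 and 39.4 CPM in spleen (log2 fold change 1.45, edgeR adjusted p = 0.000138). GATB on the other side of LINC02273 had a log2 fold change of -0.13 (adjusted p = 0.597). TCF4, an E protein transcription factor of lymphoid cells, is 216901 bases from LINC01416 and had 351.2, 363.0 and 384.3 CPM in brain and 156.9 and 170.3 CPM in spleen (log2 fold change 1.16, adjusted p = 0.000512). At these loci the LINC gene and 1 neighbour were both higher in brain in every library, the LINC gene by the larger factor.

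INSIG1, which holds the sterol-sensing SREBP complex in the endoplasmic reticulum, is 71841 bases from LINC03010. It had 157.1, 156.4 and 196.1 CPM in brain and 39.9 and 28.4 CPM in spleen, and its log2 fold change, 2.32 (edgeR adjusted p = 0.000238), was larger than the 1.18 of LINC03010. GAB2, a docking protein of receptor signalling, lies 5634 bases from LINC02728 and had 176.0, 194.5 and 183.9 CPM against 114.7 and 116.2 CPM (log2 fold change 0.68, adjusted p = 0.00447). NARS2, 5784 bases away on the other side of LINC02728, had a log2 fold change of -0.0014. The LINC gene and GAB2 thus moved in the same direction while the neighbour on the other side had a log2 fold change near 0.

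RASSF10, a member of the RAS association domain family 19719 bases from LINC00958, had 13.6, 12.9 and 15.9 CPM in brain and 5.04 and 5.69 CPM in spleen (log2 fold change 1.39, edgeR adjusted p = 0.00139). At LINC01013, CCN2, a secreted matricellular protein whose gene overlaps it, had 139.0, 129.7 and 162.1 CPM against 77.6 and 93.7 CPM (log2 fold change 0.75, adjusted p = 0.0114). MOXD1, 126063 bases from LINC01013, had 11.3, 9.28 and 13.4 CPM against 3.76 and 2.62 CPM (log2 fold change 1.83, adjusted p = 0.00223). All 3 were higher in every brain library than in either spleen library. The exception in direction was BCL7A, 1262 bases from LINC02985, which had 59.6, 53.6 and 48.8 CPM in brain and 79.7 and 90.4 CPM in spleen (log2 fold change -0.66, adjusted p = 0.0103), where LINC02985 was higher by 0.77.

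Other close neighbours did not pass. TTC7B, 33801 bases from LINC00642, had a log2 fold change of 0.02 beside the 3.39 of LINC00642. C1orf174, which shares a start region with LINC01134, had 0.05 beside 0.93. VIPR2, which overlaps LINC00689, had 8.89, 4.93 and 4.91 CPM in brain and 13.8 and 10.1 CPM in spleen; its log2 fold change, -0.94 (edgeR adjusted p = 0.0615), was close to the -1.03 of LINC00689. PTPRC, which encodes the leukocyte antigen CD45, lies 258657 bases from LINC01221 and had a log2 fold change of -0.43 (adjusted p = 0.0607). Of the 160 LINC genes, 14 had a protein-coding start within 5000 bases, 11 of them pointing away from it, and LINC01134 was the only called gene among the 14. The median distance to the nearest protein-coding start was 54270 bases for the higher, 377700 for the 3 lower and 60550 for the remaining LINC genes.

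**Figure D5:**
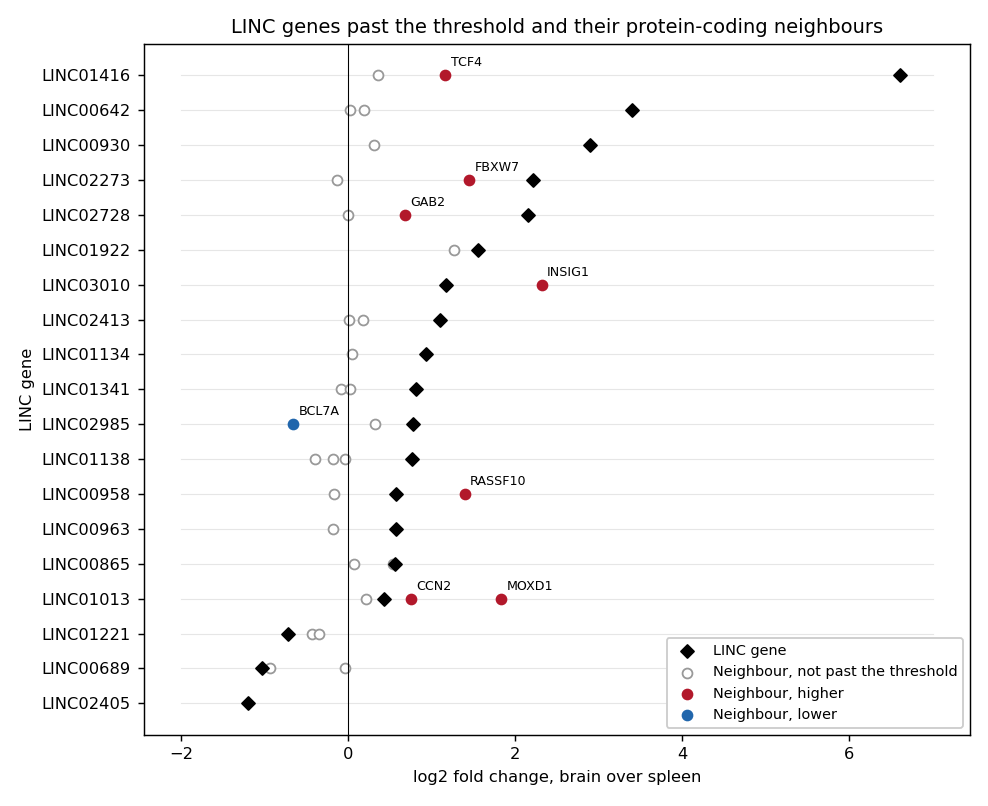
Log2 fold change, brain over spleen, of each of the 19 called LINC genes (black diamonds) and of its tested protein-coding neighbours (circles: red higher, blue lower, open not past the threshold). FBXW7, TCF4, GAB2, INSIG1, RASSF10, MOXD1 and CCN2 are higher beside a higher LINC gene, and BCL7A is lower beside LINC02985.

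By chromosome, the LINC genes were most numerous on chromosome 1, with 22, of which 3 were higher and 1 lower. Chromosomes 7 and 12 held 11 each, with 1 and 2 higher and 1 lower on each. Chromosomes 11 and 18 held 7 and 4, with 2 higher on each. The 9 genes on chromosome 3, 9 on chromosome 17 and 8 on chromosome 2 included none past the threshold. Over all 160 LINC genes 10% were higher and 1.88% lower, and differences between chromosomes were not tested.

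A list of 50 well-studied long noncoding RNAs without a numbered LINC symbol, chosen with earlier results of these data known, is set beside these values. Of the 47 that could be tested, 11 were higher and 2 lower in brain and 34 did not pass. The median log2 fold change was 0.14. Of all genes tested, 6.01% were higher and 3.5% lower. Of other long noncoding RNA genes with at least 400 counts, the shares were 6.6% and 1.73%. A chosen list does not stand for long noncoding RNAs in general. H19, an imprinted fetal RNA, had 57, 138 and 132 counts in brain and 0 and 1 in spleen. MIR210HG, the host of the hypoxia-induced miR-210, had 10.4, 16.3 and 8.40 CPM in brain against 1.91 and 2.40 CPM in spleen (log2 fold change 2.44, edgeR adjusted p = 0.00214). EPB41L4A-AS1 was higher by 0.93 on the log2 scale (adjusted p = 0.00115). The lower genes were MIR17HG, the host of the miR-17-92 cluster, with a log2 fold change of -0.96 (adjusted p = 0.0037), and DLEU2, the host of miR-15a and miR-16-1, with -0.81 (adjusted p = 0.00533). The 3 with the most counts were SNHG29 with 97693 (log2 fold change 0.53, adjusted p = 0.0337), TUG1 with 76944 (0.0095, adjusted p = 0.968) and OIP5-AS1 with 71651 (0.26, adjusted p = 0.156).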

How the data were processed

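Polyadenylated RNA of REH cells was sequenced on an Illumina NextSeq instrument with a stranded kit, per the labels' protocols. Tools in the submitters' processing notes are kallisto 0.42.4, bcl2fastq 1.8.4, cutadapt 1.5 and an unversioned DESeq2; genome builds listed there are GRCm38 and GRCh38. The strand setting is not given in the sources used here. The deposited gene table holds estimated (expected) counts written as whole numbers, and the deposited transcript tables hold kallisto estimated counts and TPM, per the file headers. A second deposited gene table holds the authors' log2-scale values (rlog), which enter a single alternative below. In each gene-level file, 1 column that belongs to no sample was not used.

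Identifiers were matched to GENCODE 44 (56322, 86.4%). Counts were tested with edgeR 4.0.16 in R 4.3.3 (quasi-likelihood F test, filterByExpr, TMM, site as the only term) over 20419 genes, Benjamini-Hochberg threshold 0.05, with residual and prior degrees of freedom of 3 and 5.9 and 0.148 as the biological coefficient of variation; the code was tested on simulated data. CPM are TMM-scaled. TPM were rescaled to 1000000 over human transcripts and summed by gene. They are given where the gene's transcripts held 0.8 to 1.25 times its gene-table counts, a limit not applied in the limma fit on TPM. Named genes are those past the threshold, the 5 highest by mean TPM, 3 on each side of the count minimum and, of the list of other noncoding RNAs, up to 3 by p in each direction and the 3 most counted; others are marked where they appear. The genes and lists were chosen with earlier results of these data known. Alternatives were DESeq2 1.42.0, limma 3.58.1 on log2(TPM + 0.1) and on rlog, other scalings, filters and count minimums, summed transcript counts, the mouse share as covariate, the replicate number as a block, and leaving out each library. The labels tie replicate numbers to occasions, but the spleen library names in the files carry numbers other than these replicate numbers, so the pairing rests on the labels; deviations of same-numbered libraries correlated at -0.025 for replicate 1 and 0.15 for replicate 2. The values of 1 neighbouring gene are not reported here.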

Additional observations from a re-analysis of the deposited data

How the results depend on the processing

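With 3 brain and 2 spleen libraries, the median standard error of a LINC gene's log2 fold change was 0.21. For all genes tested, 1228 higher and 714 lower calls became 225 and 65 with limma on log2 TPM and 114 and 11 with the mouse share as a covariate, and the lower count became 1361 with the DESeq2 Wald test and 1337 with no filter on low counts; leaving out 1 library gave 515 to 871 higher and 146 to 828 lower. For the LINC genes, 16 higher and 3 lower became 5 and 0 with limma on log2 TPM, 4 and 0 with the mouse share, 9 higher at a minimum of 1000 counts, and 10 higher with the minimum of 400 held at the lower site, an alternative chosen after seeing the data; the lower count became 5 with DESeq2 and 5 with no filter, and leaving out 1 library gave 8 to 11 higher and 1 to 4 lower. For the list of other noncoding RNAs, 11 higher became 4 with limma on log2 TPM, 1 with the mouse share and 5 to 8 without 1 library, and 2 lower became 0 with the mouse share and ran from 2 to 3 without 1 library. The cause of these differences was not tested.

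With the replicate number as a block, brain replicate 3 has no spleen library of its number and adds nothing to the site difference. In that fit, a pairing that rests on the labels' numbers, 16 LINC genes were higher and 2 lower, beside 1233 and 810 of all genes. Of the 19 calls, 15 were kept. LINC02985 (adjusted p = 0.0555), LINC01221 (0.0562), LINC01134 (0.0611) and LINC01138 (0.0693) lost theirs; the block changed no other call among the 19. The 19 called genes kept their call under DESeq2, its size factors, upper-quartile scaling, the 1 CPM filter, no filter and limma on rlog, and 18 with summed transcript counts, without LINC01134.

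Of the 141 LINC genes that had not passed, 61 changed sign in at least 1 alternative, and 0 of them passed with the changed sign. Among those named, LINC01004 ran from -0.18 to 1.17, LINC01237 from -0.23 to 0.89, LINC01873 from -0.34 to 1.67 and LINC02334 from -0.45 to 2.29. LINC01238 gave -0.0058 with the 1 CPM filter, -0.0118 with DESeq2, -0.0123 with its size factors, -0.0033 with no filter, -0.0089 with summed transcript counts, -0.0108 with upper-quartile scaling and -0.365 to 0.49 when 1 library was left out. LINC02802 gave -0.131 with limma on log2 TPM, -0.0275 with the replicate block and -0.0394 to 0.40 when 1 library was left out, the lowest without brain replicate 3.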
